A study of Mus musculus with 24 samples.

Results

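BXH2 is one of the BXH recombinant inbred (RI) strains of mice, each inbred from the cross of C57BL/6J (B6) and C3H/HeJ (C3), so that at most loci it is fixed for the allele of one progenitor. The lungs of BXH2, 2 arrays of the 24 in the series, were compared with the 16 arrays of the other 8 BXH strains (BXH4, BXH6, BXH7, BXH8, BXH9, BXH10, BXH14 and BXH19), and their position was then read against both progenitors. Members were chosen by title alone. All 12 kinds of mice, which also include the BXHF1 hybrid, were untreated males aged 8 weeks and gave 2 lung arrays each. No label tells whether the pair of arrays of a strain are separate animals. Every p-value therefore rests only on the spread between the 2 arrays within strains, and that spread may be technical. The spread among the other 8 BXH strains does not enter it. A small p-value thus does not show that BXH2 lies outside the range of those strains.

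BXH2 is known to carry an Irf8 point mutation that arose in this strain and is in neither progenitor. Irf8 is a transcription factor of the myeloid lineage. Irf8 acts with partners such as PU.1 in the precursors of monocytes and dendritic cells, where it promotes those fates and restrains the making of granulocytes. Mice that lack its function are known for too many neutrophils and for a lack of some dendritic cells, among them those that carry the integrin CD103 in the lung. A second kind of difference is due in any RI strain: at a locus where the progenitors differ, a strain takes the level of one of them, and other strains share that level. A level outside both progenitors is not placed by that rule. Whether any difference below comes from the Irf8 mutation was not tested.

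The values are signals, the deposited brightness of each probe set on a linear scale, and differences are differences of mean log2(signal + 16), which understate the change of dim genes. A gene was called where its adjusted p was below 0.05 (limma, Benjamini-Hochberg over 8280 genes), and rose and fell are used of called genes only. "Higher" and "lower" without a group mean BXH2 against the mean of the other 8 RI strains. Leaving out a BXH2 array leaves BXH2 with a single array and a wider error. A call lost in such a fit therefore does not show that the call rested on that array.

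A peroxidase and 3 serine proteases of neutrophil granules were high together in BXH2, and the stretch before each start site is shown for that reason. Mpo encodes myeloperoxidase, which makes hypochlorous acid, and Elane, Prtn3 and Ctsg encode neutrophil elastase, proteinase 3 and cathepsin G, serine proteases of the primary (azurophil) granules that are transcribed in granulocyte precursors of the bone marrow. The sequences are the 250 bases before each start site, from RefSeq (build GRCm38.p6), on the strand of the gene. They lie at chr11:87793534-87793783 (plus strand, Mpo), chr10:79886062-79886311 (plus, Elane), chr10:79879417-79879666 (plus, Prtn3) and chr14:56102575-56102824 (minus, Ctsg). Capitals mark GAGGAA, the core letters of sites for PU.1, searched on both strands.
Mpo: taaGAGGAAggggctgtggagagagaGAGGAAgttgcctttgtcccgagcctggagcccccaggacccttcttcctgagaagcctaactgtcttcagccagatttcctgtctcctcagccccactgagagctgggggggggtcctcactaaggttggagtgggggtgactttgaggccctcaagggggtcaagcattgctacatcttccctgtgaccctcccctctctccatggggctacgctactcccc
Elane: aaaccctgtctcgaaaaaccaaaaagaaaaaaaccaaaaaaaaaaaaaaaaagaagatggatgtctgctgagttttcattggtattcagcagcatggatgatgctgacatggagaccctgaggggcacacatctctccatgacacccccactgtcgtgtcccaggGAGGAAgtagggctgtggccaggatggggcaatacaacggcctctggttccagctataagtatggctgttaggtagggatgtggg
Prtn3: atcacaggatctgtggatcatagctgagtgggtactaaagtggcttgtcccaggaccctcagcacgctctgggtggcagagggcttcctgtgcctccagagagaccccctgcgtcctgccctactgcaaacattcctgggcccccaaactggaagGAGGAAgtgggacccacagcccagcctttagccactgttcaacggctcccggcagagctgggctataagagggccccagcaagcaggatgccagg
Ctsg: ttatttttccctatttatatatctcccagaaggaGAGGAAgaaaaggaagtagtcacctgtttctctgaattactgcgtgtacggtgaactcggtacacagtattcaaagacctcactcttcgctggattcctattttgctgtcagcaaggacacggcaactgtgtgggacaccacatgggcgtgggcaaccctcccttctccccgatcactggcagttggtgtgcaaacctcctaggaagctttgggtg
All 4 windows held the core, with 2 matches in Mpo and 1 in each of the others, and the share of all 32851 RefSeq windows of this length with a match was 23.3%. The letters TGTGGT (RUNX factors) were found in Ctsg only, against 14% of all windows. AACNG (MYB) had 1 match in Mpo, 2 in Elane, 3 in Prtn3 and 3 in Ctsg, and 74.2% of all windows held it. TTNCNNAA (C/EBP) was in none of the 4 and in 36.8% of all. No PU.1 core overlapped a match of another motif. These matches describe the letters only, and binding was not measured.

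Mpo had signals of 589.9 and 369 on the BXH2 arrays. On the 16 arrays of other RI strains it ran from 173.5 to 277.3 with a median of 215.1, and it was 188.7 and 210.3 in B6 and 169.3 and 205.6 in C3. Both BXH2 arrays lay above all 22 others. Mpo rose by 1.03 (SE 0.18, limma adjusted p = 0.00627) and was also higher than B6 (1.17, adjusted p = 0.0185) and C3 (1.25, adjusted p = 0.0100). Ltf, the iron-binding lactoferrin of secondary granules, had 2800.7 and 3288.8 in BXH2. The other RI arrays had 531.7 to 1383.2 (median 753.4), B6 had 698.7 and 785.1, and the C3 arrays were far apart at 538.8 and 2748.1. Ltf rose by 1.89 (SE 0.35, adjusted p = 0.00801) and both BXH2 arrays were above all others, C3 replicate 2 only narrowly below. Leaving out BXH2 replicate 1 ended both calls (Mpo 0.70, adjusted p = 0.288, and Ltf 2.01, adjusted p = 0.0967), and without BXH2 replicate 2 Ltf no longer passed (1.78, adjusted p = 0.119) while Mpo did (1.36, adjusted p = 0.00911).

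The 3 proteases were too dim over all 24 arrays to pass the filter on signal and were tested in the fit without that filter, over 12393 genes. They are named here after their values were seen, as 3 of the 6 neutrophil granule genes under the filter. The other 3 did not pass: Camp, a secondary granule peptide (2.28, limma adjusted p = 0.379), Stfa3 (0.50, adjusted p = 0.448) and, with the opposite sign, the chemokine receptor Cxcr2 (-0.53, adjusted p = 0.735). Of the 147 members of all lists under the filter, 4 were called, these 3 proteases and Itgae. In that fit 100 of all 12393 genes were called, 22 of them under the filter. Ctsg had signals of 117.5 and 144.7 in BXH2 and between 4 and 16.8 on the other RI arrays (median 6.3), with 5.4 and 6.2 in B6 and 4.1 and 8.3 in C3. No other array came near the BXH2 arrays. Ctsg was higher by 2.66 (SE 0.16, limma adjusted p = 7.8e-08), the smallest adjusted p of the 22 called genes under the filter, and it stayed called in each of the 40 alternatives run for it.
Elane had 240.6 and 90.7 in BXH2 against 25.6 to 44.7 on the other RI arrays (median 38.9), 39.3 and 28.9 in B6 and 29.3 and 30.7 in C3. The groups did not overlap, but replicate 1 was far above replicate 2. Elane was higher by 1.64 (SE 0.24, adjusted p = 0.00245), and without BXH2 replicate 1 the difference was 1.01 (adjusted p = 0.109).
Prtn3 had 181 and 175 in BXH2 and 13.3 to 95.4 on the other RI arrays (median 21.3), with 20.9 and 20.2 in B6 and 16.8 and 26.6 in C3. Its difference was 2.13 (SE 0.37, adjusted p = 0.00816), and it no longer passed without BXH2 replicate 1 (2.10, adjusted p = 0.119) or 2 (2.15, adjusted p = 0.0912).

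Of 12 tested neutrophil granule genes, 2 rose (Mpo and Ltf), 0 fell and 11 had a positive difference, with a median of 0.44 beside -0.01 over all tested genes. Over all genes 0.58% rose and 0.592% fell. Ngp, a protein of secondary granules, had 2816.4 and 1963 in BXH2 and 367.7 to 2111.3 on other RI arrays, and its 1.64 did not pass (adjusted p = 0.0692), although it did in 6 of 43 alternatives (adjusted p down to 0.0121 without BXH19 replicate 1). The calcium-binding pair S100a8 and S100a9 of mature neutrophils differed by 1.28 (adjusted p = 0.199) and 1.23 (adjusted p = 0.304), with BXH4 replicate 1 between the BXH2 arrays for both. The mean of the list was 10.56 and 10.28 on the BXH2 arrays, 9.19 to 10.31 on the other RI arrays and highest there on BXH4 replicate 1. In whole lung RNA, more cells of a type and more RNA per cell cannot be told apart, and neither can cells of the tissue and of the blood within it. The erythroid list, a sign of blood, had means of 9.75 and 9.91 in BXH2 and 9.13 to 9.93 on other RI arrays (median 9.46). Of its 11 tested genes 10 had a positive difference, with a median of 0.20. One of its 11 tested genes rose, Slc4a1 (the red cell anion exchanger, 1.31, adjusted p = 0.0352), with 385.6 and 611.6 in BXH2 and 33.6 to 459.4 elsewhere among the RI arrays. It was lost without BXH2 replicate 1 (1.63, adjusted p = 0.102) and 2 (0.99, adjusted p = 0.348). Of the 8 erythroid genes under the filter 0 were called, and their differences had both signs. Klf1 (-0.25), Hba-a2 (-0.23), Gata1 (-0.20), Car1 (-0.12) and Hemgn (-0.06) were negative. Rhag (0.21), Epb42 (0.06) and Hba-a1 (0.02) were positive. The part of blood content in the granule genes was not tested.

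**Figure D1:**
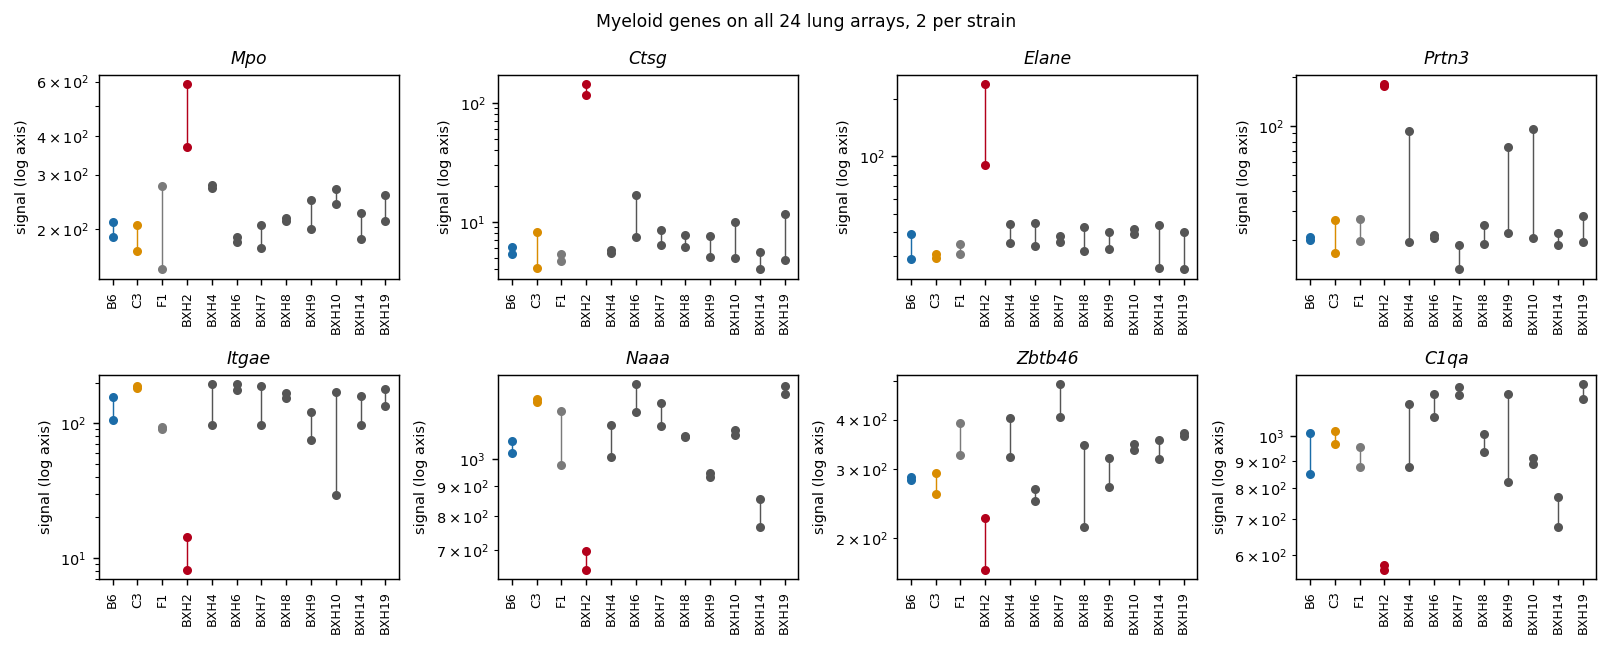
Signal (log axis) of 8 myeloid genes on all 24 arrays, 2 joined points for each of 12 strains with BXH2 in red, B6 in blue, C3 in orange and the rest in grey. Both BXH2 points lie above all other arrays for Mpo, Ctsg, Elane and Prtn3, below all others for Itgae, Naaa and C1qa, and overlap 1 array (BXH8) for Zbtb46.

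Irf8 itself had 530.3 and 534.6 in BXH2, 411.7 to 1002.2 on the other RI arrays (median 777.1), 606.4 and 560.3 in B6 and 781.4 and 789.7 in C3. The BXH2 arrays lay within the range of the other strains, and the difference of -0.46 (SE 0.15, limma adjusted p = 0.170) did not pass. It did pass in 2 of 43 alternatives, without BXH14 replicate 1 (-0.51, adjusted p = 0.0225) and without strain BXH14 (-0.52, adjusted p = 0.0201), and ran from -0.52 to -0.22 over all of them. A probe set reads the amount of RNA and not a point mutation, so this level does not check the allele. The 5 tested genes among the 20 annotated neighbours on each side of Irf8 were Zdhhc7, 6430548M08Rik, Emc8, Cox4i1 and Foxf1, and 0 of them passed. The 3 of smallest p were 6430548M08Rik (-0.31, adjusted p = 0.585), the palmitoyltransferase Zdhhc7 (-0.17, adjusted p = 0.657) and the lung mesenchyme factor Foxf1 (-0.16, adjusted p = 0.873).

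Genes of dendritic cells and macrophages that fell were few, and 2 of them stood below every other array. Naaa, a lysosomal amidase that degrades the lipid mediator palmitoylethanolamide and marks conventional dendritic cells, had 697.2 and 647.9 in BXH2. It ran from 766 to 1343.1 (median 1110.2) on the other RI arrays, with 1071.9 and 1023.6 in B6 and 1249.6 and 1265.6 in C3. Naaa fell by 0.68 on the log2 scale (SE 0.09, limma adjusted p = 5.31e-04), was lower than B6 (-0.63, adjusted p = 0.00847) and C3 (-0.89, adjusted p = 3.14e-04), and passed with either BXH2 array alone. C1qa, a chain of the complement recognition protein C1q made by macrophages, had 576.9 and 564.7 in BXH2 and 677.1 to 1249.5 on the other RI arrays (median 1046.5). B6 had 849.5 and 1012.6, and C3 had 1021.9 and 965.5, so C1qa in BXH2 was also below every other array. C1qa fell by 0.80 (SE 0.12, adjusted p = 0.00195) and passed without either BXH2 array. Of the other C1q chains, C1qb differed by -0.01 (adjusted p = 0.986) and C1qc by -0.33 (adjusted p = 0.369), and neither passed. The difference between the chains was not tested.

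Zbtb46, a transcription factor of conventional dendritic cells that endothelium also expresses, had 166.8 and 225.2 in BXH2 and 213.5 to 491.9 on the other RI arrays (median 339.7). It fell by 0.72 (SE 0.15, limma adjusted p = 0.0205), with the higher BXH2 array above 1 BXH8 array, and without BXH2 replicate 1 it did not pass (-0.52, adjusted p = 0.397). Mpeg1, the pore-forming perforin-2 of macrophages and dendritic cells, had 1025.6 and 1110.4 against 1065.8 to 2444.9 (median 1674.0). It fell by 0.69 (SE 0.14, adjusted p = 0.0140) and was lost without BXH2 replicate 1 (-0.63, adjusted p = 0.235) or 2 (-0.74, adjusted p = 0.0989). Mpeg1 was 1461 and 1193.9 in B6 and 2070.9 and 2001.8 in C3, so BXH2 was nearer B6 there. Itgae, the CD103 integrin chain of lung dendritic cells and of T cells in epithelium, was under the filter and is named after its values were seen. It had 14.4 and 8.2 in BXH2 and 29.3 to 195 on the other RI arrays (median 157.1), with 157.5 and 106.3 in B6 and 190.4 and 181.5 in C3. Both BXH2 arrays were below all others. In the fit without a filter Itgae was lower by a log2 difference of -2.43 (SE 0.36, adjusted p = 0.00298), and without BXH2 replicate 2 it was -2.27 (adjusted p = 0.0681). Of the 6 conventional dendritic cell genes under the filter only Itgae was called. The others were Xcr1 (-0.26, adjusted p = 0.746) and Batf3 (-0.10, adjusted p = 0.940), a receptor and a transcription factor of the same CD103 cells, and Flt3 (-0.04), Ccr7 (-0.04) and Cd8a (-0.01).

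Described as lists, the 11 tested conventional dendritic cell genes held 2 that fell (Naaa and Zbtb46) and 0 that rose, with a median of -0.02 beside -0.01 for all genes. Their mean was 9.33 and 9.29 in BXH2 and 9.17 to 9.64 on the other RI arrays. Of 19 tested Irf8-dependent myeloid genes, Naaa and Mpeg1 fell, Lst1 rose and 13 were negative (median -0.15). Lst1, a leukocyte membrane protein encoded within the major histocompatibility complex (MHC), had 620.9 and 383.7 in BXH2 and 36.9 to 391.2 on the other RI arrays. Lst1 also differed between the progenitors, with C3 above B6 by 1.45, and BXH2 was nearer C3 and above it. Its difference was 1.43 (SE 0.23, limma adjusted p = 0.00348), and 1.09 without BXH2 replicate 1 (adjusted p = 0.175). Members that did not pass included the monocyte receptor Adgre4 (-0.83, adjusted p = 0.0802, but called in 4 of 41 alternatives, down to 0.0413), the fractalkine receptor Cx3cr1 (-0.69, adjusted p = 0.145), which is highest on patrolling monocytes, and the lysosomal protease Ctss (-0.40, adjusted p = 0.193). Of 14 tested partner factors of Irf8 and PU.1, only Zbtb46 passed (median -0.15). Of 17 interstitial macrophage and monocyte genes C1qa fell and Nr4a1 rose (median -0.18), and 0 of 12 alveolar macrophage genes passed (median -0.09). Of 6 plasmacytoid dendritic cell genes 1 rose, Cox6a2 (0.71, adjusted p = 0.0421), a muscle subunit of cytochrome oxidase that is also on the cardiac list, and it was lost without BXH2 replicate 1 (0.51, adjusted p = 0.491) and 2 (0.91, adjusted p = 0.0798). None of 9 class II antigen presentation genes passed (median 0.04) and none of 15 apoptosis regulators linked to Irf8 (median -0.03).

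In all, 97 genes were called in BXH2 (1.17% of those tested), 48 higher and 49 lower, and 939 genes had an unadjusted p below 0.05. In the same fit the other RI strains had between 101 and 632 called genes. All 97 had the same sign on both BXH2 arrays, but calling genes on the mean of these same arrays makes that likely. Many of the 97 calls were lost without BXH2 replicate 1 or without BXH2 replicate 2. The error is wider with a single BXH2 array, so these losses do not show how far the calls rested on either array. The BXH2 arrays correlated with each other at 0.958 across genes, and each with one array of another kind of mouse at 0.960 or 0.961. Most lung markers were within the range of the other arrays: Sftpc, surfactant protein C of alveolar type 2 cells, had 16862.5 and 16012.1 in BXH2 and 9579.1 to 20160.1 on the other 22 arrays, and Ager, of type 1 cells, had 8640 and 9739.1 against 5527.1 to 11117.7. Pecam1 of endothelium had 1767.4 on BXH2 replicate 1, below the 2094.6 to 3640.8 of the other arrays, and 3050.9 on replicate 2. Foxj1 of ciliated cells likewise had 431.6 on replicate 1, below the 457.3 to 916.2 of the other arrays, and 818.3 on replicate 2.

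By position, 38 of the 97 called genes were outside both progenitor means by more than 0.5, 19 above and 19 below. Another 21 were at the level of one progenitor where B6 and C3 differed by at least 1. A further 36 were not outside and had progenitors that differed by less than 1, and 2 lay between the progenitors (Rpgrip1, of the photoreceptor cilium, and the purine-degrading enzyme Xdh). Among all 8280 genes 259 (3.13%) were outside by this margin, most of them not called. BXH2 differed from B6 in 1.4% and from C3 in 1.82% of genes, and C3 from B6 in 1.67%. Tested directly, 23 genes (0.278%) were outside both progenitors with both differences past 0.05 in the same direction, 9 above (0.109%) and 14 below (0.169%). Both tests share the BXH2 arrays. Only 11 of these 23 were also called against the other RI strains. Of the called genes outside by the margin, only 4 of the 19 above and 6 of the 19 below were outside by both tests.

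**Figure D2:**
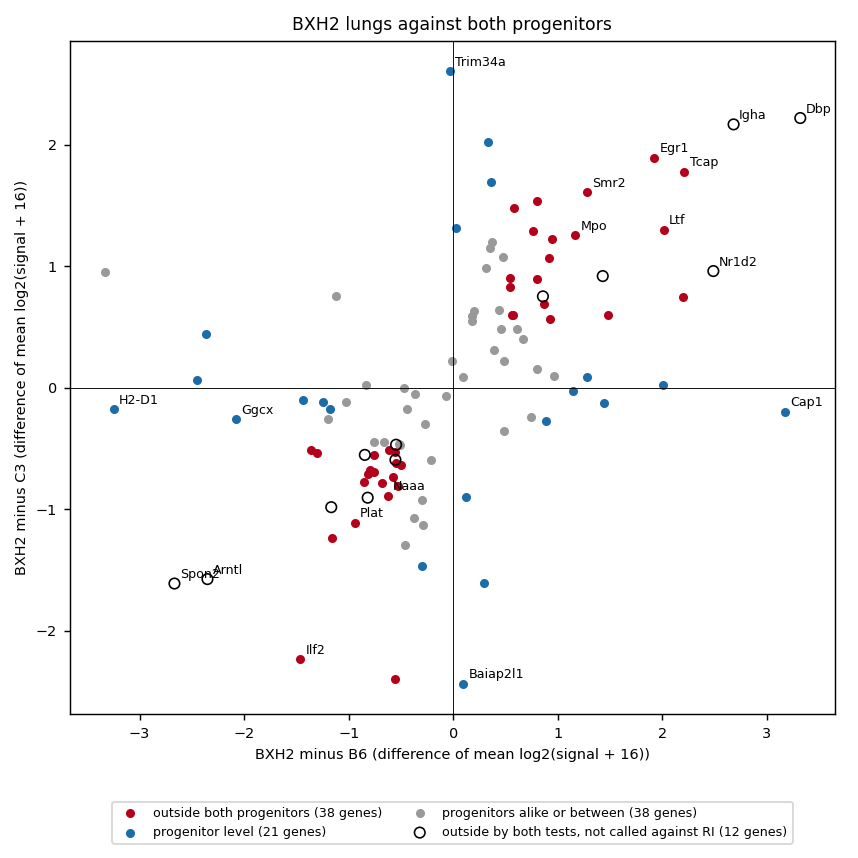
BXH2 minus B6 (x) against BXH2 minus C3 (y), in log2(signal + 16), for the 97 called genes and for 12 genes outside both progenitors by both tests but not called against RI strains (open circles). The 38 genes outside both progenitors (red) fill the upper right and lower left, the 21 at a progenitor level (blue) lie near an axis, the other 38 called genes are grey, and Dbp, Igha and Nr1d2 are the open circles farthest to the upper right.

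Among the largest falls in BXH2 were progenitor levels of the MHC. H2-D1 and H2-K1, class I chains that present peptides to T cells, had 941.9 and 882.7, and 1628.8 and 1552.6, in BXH2. C3 had 1085.7 and 985.2 for H2-D1 and B6 had 8824.2 and 8796.7, and the other RI arrays ran from 881.9 to 13592.7. H2-D1 was -2.25 (SE 0.16, limma adjusted p = 7.43e-08) against the other strains and -0.18 against C3, and BXH6, BXH7 and BXH14 shared the C3 level. Its 8 other probe sets had a median difference of 0.10, and a median does not tell how many of them were low. Over the alternatives H2-D1 ran from -2.57 to -0.57. Whether the low level reads RNA amount or a sequence difference was not tested. H2-K1 was -1.79 (SE 0.12, adjusted p = 7.43e-08), with -1.15 over its 3 other probe sets, and BXH6 and BXH14 shared its level. H2-M3, a class I chain that presents formylated peptides, fell by 0.77 (adjusted p = 0.00316, and 0.0989 without BXH2 replicate 2). These 3 were the called genes of 14 tested on the class I antigen presentation list (median -0.15). The glyoxalase Glo1, which removes methylglyoxal, was near C3 in the same strains as H2-D1, with 2140.4 and 2449.7 in BXH2 and 0.69 above the RI mean (SE 0.11, adjusted p = 0.00239, and 0.0798 without BXH2 replicate 2).

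At the other progenitor level, Baiap2l1, a membrane-bending adaptor of the actin cytoskeleton, had 615.2 and 745.5 in BXH2, close to 560.3 and 713.1 in B6. C3 had 4183.3 and 3330.4, and the median of other RI arrays was 3628.9. Baiap2l1 fell by 1.84 (SE 0.12, limma adjusted p = 5.55e-08), BXH7 and BXH8 shared the level, and its other probe set gave -2.27. Trim34a, of an antiviral family, had 993.3 and 758.1 in BXH2 and 995.7 and 792.5 in B6, against 125.6 and 133.7 in C3. It rose by 2.00 (SE 0.33, adjusted p = 0.00348), shared with BXH7, BXH14 and BXH19, although its other probe set gave -0.88 and without BXH2 replicate 1 it did not pass (1.81, adjusted p = 0.111). The actin regulator Cap1 was at the C3 level in BXH2 (2971.2 and 2998.5) and in 6 other RI strains. Its call (0.75, adjusted p = 0.00695) rested on the low levels of BXH8 and BXH10: it was 0.35 without BXH8 (adjusted p = 0.210) and 0.40 without BXH10 (adjusted p = 0.129). It was also lost without BXH2 replicate 1 (0.76, adjusted p = 0.111) and 2 (0.74, adjusted p = 0.0972).

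Ggcx, the carboxylase that uses vitamin K to activate clotting and matrix proteins, was the single called gene at a progenitor level that no other RI strain shared. BXH2 had 111.4 and 105.2, C3 had 128.3 and 137.3, and B6 had 465.9 and 553.6. All 16 other RI arrays lay between 318.8 and 486.1. Ggcx fell by 1.76 (SE 0.14, limma adjusted p = 2.72e-07) and passed without either BXH2 array. It is measured by 1 probe set.

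**Figure D3:**
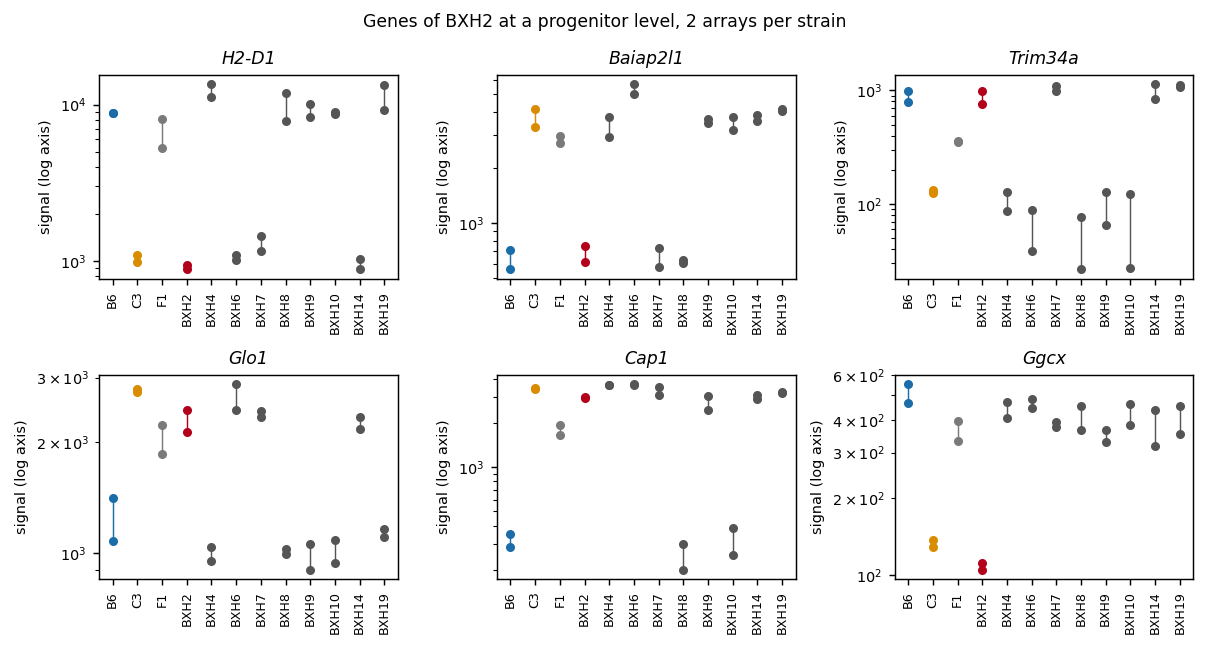
Signal (log axis) of 6 genes called in BXH2 that lie at a progenitor level, 2 joined points for each of 12 strains, coloured as B6 blue, C3 orange, BXH2 red and others grey. The strains fall at 2 levels, with BXH2 beside C3 for H2-D1, Glo1, Cap1 and Ggcx and beside B6 for Baiap2l1 and Trim34a, and only BXH2 among RI strains is low for Ggcx.

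The other 14 genes at a shared progenitor level split in the same way. Near B6 and lower were Lsm12 (-1.02), the receptor-like Gprc5b (-0.85) and the kinase family member Nme7 (-0.56), and near B6 and higher were the trafficking GTPase Rab6b (1.00), Arap3 (0.75) and Sspn of the dystrophin complex (0.64). Near C3 and lower were Pdxdc1 (-1.39), Lrrc1 (-0.91), Wdr82, of a histone methyltransferase complex (-0.75), and the antiviral deaminase Apobec3 (-0.64). Near C3 and higher were the slow myosin Myh7 (0.99), Rad51ap1 of DNA repair (0.95), Alad of haem synthesis (0.80) and Clba1 (0.51). Between 2 and 5 other RI strains shared each of these levels. The direction of Pdxdc1 depended on the probe set. The mean of its probe sets gave -0.22 (limma adjusted p = 0.471). With an offset of 64 another probe set had the highest mean and was read instead, and it gave 1.92 (adjusted p = 1.12e-07). Nme7 was lost in 25 of 43 alternatives and Clba1 in 28 of 42. Myh7, Rad51ap1, Sspn, Lrrc1 and Arap3 were lost without BXH2 replicate 1 and without replicate 2. All of these but Arap3 were also lost with the muscle mean as a covariate, and Arap3 with the mean of probe sets. Lsm12, Gprc5b and Alad were lost without BXH2 replicate 2. Wdr82 and Rab6b passed with either BXH2 array alone, while Apobec3 did not without BXH2 replicate 1 (-0.64, adjusted p = 0.234) or 2 (-0.63, adjusted p = 0.167). Of the 97 called genes 15 had another called gene within 20 annotated genes, in 7 groups. No such count was made for other genes or strains, so it does not show that called genes group together. One held Wdr82 with Abhd14a and Manf, all 3 lower. Others held genes of opposite direction, such as Lst1 (higher) with H2-D1 (lower) and Slc4a1 (higher) with Lsm12 (lower).

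Among genes outside both progenitors and above them, Mpo, Ltf, Lst1, Egr1, Nr4a1, Smr2 and Slc4a1 stood beside muscle genes. Egr1, a transcription factor that is induced within minutes of a stimulus, had 1290.4 and 3107 in BXH2, 448 to 1816.9 on the other RI arrays (median 753.8), 508.3 and 527.1 in B6 and 516.3 and 539.7 in C3. Replicate 2 was far above replicate 1, which lay within the range of the other strains. Egr1 rose by 1.32 (SE 0.24, limma adjusted p = 0.00695), and without BXH2 replicate 2 it was 0.69 (adjusted p = 0.283). Nr4a1, an orphan nuclear receptor of the same early response, which patrolling monocytes also need, had 1355.7 and 1906.4 against 552.4 to 1512.7. It rose by 1.02 (SE 0.18, adjusted p = 0.00617), and was 0.78 without BXH2 replicate 2 (adjusted p = 0.172). Of 21 tested immediate early genes, Egr1 and Nr4a1 rose, Ier5 fell and 18 were positive (median 0.21). Fos (0.71, adjusted p = 0.182) and the phosphatase Dusp1 (0.62, adjusted p = 0.0612) were highest on BXH2 replicate 2 among the RI arrays and did not pass. Dusp1 passed in 6 of 43 alternatives (adjusted p down to 0.0123 without BXH14 replicate 1). The list mean was 10.33 and 10.76 in BXH2 and 10.11 to 10.42 on the other RI arrays.

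Ier5, an early response gene that moved the other way, had 734.8 and 746.2 in BXH2, below all other arrays (780 to 1225.6 in RI strains). It fell by 0.45 (SE 0.08, limma adjusted p = 0.00560), below B6 (-0.55) and C3 (-0.62), and was lost without BXH2 replicate 1 (adjusted p = 0.108) or 2 (adjusted p = 0.0753). Smr2, a secreted protein of submaxillary gland, had 1190.2 and 1294.3 in BXH2, above all other arrays (229.4 to 1052.2 in RI strains), and rose by 1.44 (SE 0.22, adjusted p = 0.00255). Its 2 other probe sets had a median of -0.08, and it was 1.38 without BXH2 replicate 2 (adjusted p = 0.0640). Acaa1b, a peroxisomal thiolase of fatty acid oxidation, had 498.8 and 456.2 against 129.6 to 400.2 in RI strains and rose by 1.01 (adjusted p = 0.00350). Without BXH2 replicate 1 its adjusted p was 0.101.

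Muscle genes made up much of the rest. Of 15 tested skeletal muscle genes 5 rose, the glycogen phosphorylase Pygm (1.05), the enolase Eno3 (0.99), the sarcomere protein Tcap (0.73), creatine kinase Ckm (1.63) and the calcium pump Atp2a1 (1.28), and all 15 were positive with a median of 2.42. Ckm had 2882.2 and 3469.4 in BXH2 and 411.5 to 3922.4 on the other RI arrays, highest on BXH9 replicate 2, with 2425.2 and 2535.5 in B6 and 828.2 and 2421.5 in C3. The list mean was 10.73 and 10.87 in BXH2 and 6.75 to 11.40 on the other RI arrays. B6 had means of 10.29 and 10.27, and C3 had 7.0 and 10.16. BXH2 thus held as much of this RNA as some other strains and B6. Of 19 tested cardiac genes, Mb (myoglobin, 1.31) and Cox6a2 rose and all 19 were positive (median 0.27), and Ttn and Smpx of the sarcomere rose by 0.76 and 1.15. Tcap was also outside both progenitors by both tests (2.21 from B6 and 1.78 from C3), but 7 other RI strains were outside on the same side. Without BXH2 replicate 1 or 2 none of Pygm, Eno3, Tcap, Ckm and Atp2a1 passed (adjusted p from 0.0664 for Pygm to 0.374 for Tcap), nor did Ttn or Smpx, and Mb was lost without BXH2 replicate 1 (1.11, adjusted p = 0.154). A fit with the muscle mean as a covariate called 34 genes, 30 of them among the 97. Mpo (1.08), Naaa (-0.62), C1qa (-0.84), Lst1 (1.56), Egr1 (1.55) and Ggcx (-1.69) passed in that fit, whereas Ltf (1.54, adjusted p = 0.136), Zbtb46 (-0.68, adjusted p = 0.176), Mpeg1 (-0.73, adjusted p = 0.0827) and Smr2 (1.15, adjusted p = 0.0656) did not.

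**Figure D4:**
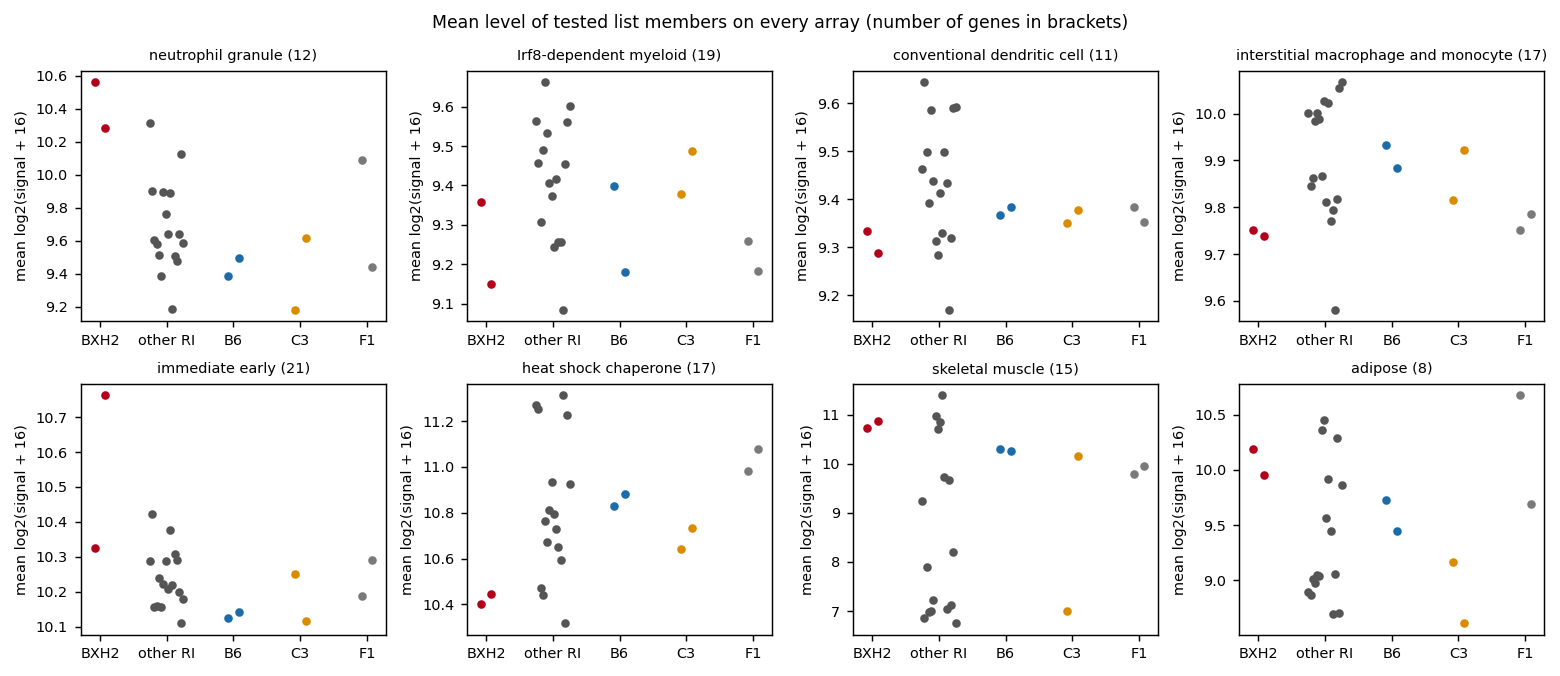
Mean log2(signal + 16) of the tested members of 8 gene lists on each array, by group (2 BXH2 arrays, 16 other RI arrays, and 2 each of B6, C3 and F1). BXH2 lies at the top of the RI range for neutrophil granule and immediate early genes, near the bottom for heat shock chaperones, and within the wide spread for skeletal muscle and adipose genes.

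Genes below both progenitors by the margin of 0.5 were of varied function. Plat, tissue plasminogen activator, which starts fibrinolysis, had 391.2 and 348.6 in BXH2 and 452.4 to 845.4 on the other RI arrays (median 700.7). B6 had 669.5 and 783.3 and C3 had 997.6 and 667.9, so both BXH2 arrays were the lowest of all. Plat fell by 0.85 (SE 0.13, limma adjusted p = 0.00239), and was -0.77 without BXH2 replicate 2 (adjusted p = 0.0729). Lox, which cross-links collagen and elastin, was lower than both progenitors (-1.16 from B6 and -1.23 from C3), but 5 other RI strains were below both too, and its -0.63 (adjusted p = 0.0361) was lost without BXH2 replicate 2 (-0.28, adjusted p = 0.546). Gclc, the catalytic subunit for glutathione synthesis, had 580.9 and 600.1, below all other arrays, and fell by 0.72 (adjusted p = 0.0230). Oas2, an interferon-induced antiviral enzyme, fell by 1.05 (adjusted p = 0.00348), with 212.4 and 131.5 in BXH2 and 151.7 to 750.4 in the other RI strains, and was -0.73 without BXH2 replicate 2 (adjusted p = 0.143). It was the single called gene of 25 on the interferon response list, where 17 were negative (median -0.22). Gclc was lost without either BXH2 array (adjusted p = 0.246 and 0.143).

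The endothelial factors Sox18 (-0.57, limma adjusted p = 0.00924) and Hey1 (-0.63, adjusted p = 0.00577) fell. Sox18 was the single called gene of 21 endothelial genes (median -0.19), and both were lost without BXH2 replicate 1 (adjusted p = 0.267 and 0.175). Pllp, a membrane protein of myelin and epithelium, had 342.4 and 346 in BXH2, below all other arrays, and was below both progenitors (-0.76 and -0.69). Xbp1, a factor of the unfolded protein response, was also below both (-0.52 and -0.46), but in only 9 of 44 settings by both tests. It was below all other arrays, with 5151.8 and 4493.6 in BXH2 and 5431.5 to 8103.1 in RI strains. Against the RI strains Pllp fell by 0.62 (adjusted p = 0.0164, and 0.200 and 0.131 without either BXH2 array) and Xbp1 by 0.45 (adjusted p = 0.00924). The Xbp1 call was lost without BXH2 replicate 2 (-0.36, adjusted p = 0.207), with the mean of probe sets (-0.19, adjusted p = 0.299) and with the muscle covariate (-0.47, adjusted p = 0.0827). Rps4l, a ribosomal protein gene copy whose probes could also bind RNA of its paralogs, fell by 0.95 (adjusted p = 0.0205). Its call was lost without BXH2 replicate 2. Ilf2 (-1.95) and Grin2c (-1.47) had the largest differences below, but Ilf2 was also low on B6 replicate 1 (93.0) and on the lowest other RI array (79.7), its other probe set gave 0.10, and neither BXH2 array alone gave a call (adjusted p = 0.113 and 0.131). Grin2c rested on BXH2 replicate 2 (157.7 and 22.9) and was -0.39 without it (adjusted p = 0.620).

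Gzma, a granzyme of NK and cytotoxic T cells, fell by 1.24 (limma adjusted p = 0.00789), with 506 and 235.9 in BXH2. It was 558.6 and 523.3 in B6 and 535.1 and 467.1 in C3, while the other RI arrays ran from 240.8 to 3752.1, highest in BXH4. Without both BXH4 arrays Gzma was -0.95 (adjusted p = 0.0598) and without BXH2 replicate 2 it was -0.71 (adjusted p = 0.282). It was the single called gene of 10 tested NK cell genes, all 10 of which were negative (median -0.28). Of 5 more under the filter 0 were called, and their signs were mixed. Gzmb (-0.63) and Ncr1 (-0.46) were negative, Xcl1 (0.75) and Klra8 (0.16) positive, and Eomes was at 0.00. None of 10 B cell and plasma cell genes passed, all 10 were positive (median 0.36), and Cd79a, of the B cell receptor, had 527.2 and 469.3 against 166.6 to 427.2 (0.75, adjusted p = 0.131). Cd79a passed in 3 of 42 alternatives, with the muscle covariate (1.17, adjusted p = 0.0297) and without BXH14 replicate 2 or strain BXH14 (adjusted p = 0.0128 and 0.0279). Of 17 heat shock chaperones 0 passed and 16 were negative (median -0.35), among them Dnaja1 (-0.70, adjusted p = 0.0710) and Hsph1 (-0.99, adjusted p = 0.0772). These passed in 4 and 5 of 43 alternatives, with the smallest adjusted p without BXH14 replicate 2 (Dnaja1 -0.78, adjusted p = 1.33e-04, and Hsph1 -1.10, adjusted p = 6.30e-04).

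Of the 38 called genes outside both progenitors, 23 were outside in BXH2 and in no other RI strain on the same side. They were 8 of the 19 above (Acaa1b, Hsd17b10, Lst1, Ltf, Mpo, Nr4a1, Tuba8 and Ube2r2) and 15 of the 19 below, among them C1qa, Gclc, Ier5, Ilf2, Naaa, Oas2, Pllp and Sox18. Both BXH2 arrays were beyond all 22 others in 6 of the 19 above and 10 of the 19 below. Over all tested genes both BXH2 arrays lay beyond the 16 other RI arrays in 122 genes (1.47%), 48 above and 74 below, against 133 to 528 for the other strains, and beyond all 22 other arrays in 79 (0.954%). F1 was outside the progenitors with BXH2 in 0 of the 38.

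The reverse also occurred: 12 genes were outside both progenitors by both tests in BXH2 and were not called against the other RI strains, and in 9 of these at least 4 other RI strains were outside on the same side. Of the 12, 5 belong to the daily clock. Dbp, a clock output factor, had 1533.2 and 2141.6 in BXH2, 196.3 and 142 in B6 and 402.5 and 353 in C3, and 504.5 to 2326.9 on the other RI arrays. It was 3.32 above B6 (limma adjusted p = 2.76e-08) and 2.22 above C3 (adjusted p = 1.21e-05), with all 8 other RI strains above both, and 0.52 from the RI mean (adjusted p = 0.159). Nr1d2, a clock repressor, was 2.49 above B6 and 0.96 above C3, and the output factors Tef (1.43 and 0.92) and Hlf (0.86 and 0.75) were above both. Arntl, the clock activator that peaks in the opposite phase, was below both (-2.35 and -1.57), with 132.2 and 75.9 in BXH2, 568 and 591.6 in B6 and 300 and 366.1 in C3. In Nr1d2, Tef and Arntl 7 other RI strains were outside with BXH2. The time of day of collection is not in the sources used here, and its part was not tested. None of 12 clock genes was called against the RI strains (median 0.06), and the list's median was 1.24 from B6 and 0.74 from C3.

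Igha, the constant region of immunoglobulin A, had 1378 and 1542.5 in BXH2 against 211.4 and 216.2 in B6 and 303.2 and 322.1 in C3. It was above both (2.68 and 2.17, limma adjusted p = 1.59e-04 and 0.00212), as were all 8 other RI strains, and -0.37 from their mean. Spon2, a secreted matrix protein of innate immunity, was below both (-2.67 and -1.61), with 173.3 and 116.9 in BXH2 and 868.5 and 1132.1 in B6, and so were 7 other RI strains. The rest of the 12 were Gyg, Pcdh18, Pdlim7, Rasl11b and Id3, all below, by -0.47 to -1.17. Pcdh18 and Rasl11b were below both by both tests in 36 and 34 of 44 settings and Gyg in 27, but Id3 in only 20 and Pdlim7 in only 14. Id3 differed by less than the margin of 0.5 from C3 and so has no count of other strains.

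**Figure D5:**
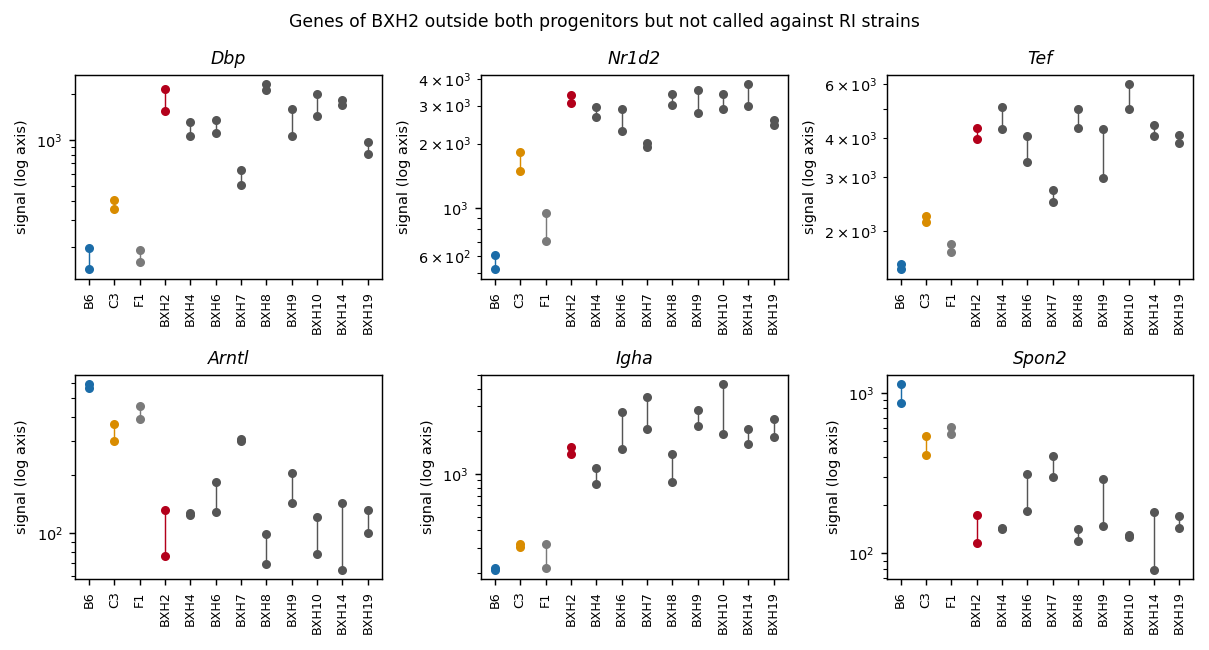
Signal (log axis) of 6 genes outside both progenitors in BXH2 but not called against the RI strains, 2 joined points for each of 12 strains (B6 blue, C3 orange, BXH2 red, others grey). For Dbp, Nr1d2, Tef and Igha the BXH2 points and nearly all other RI points lie above B6, C3 and F1, and for Arntl and Spon2 below them.

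Of the 36 called genes with like progenitors, the largest were Ckm, Pygm and Eno3 and, at about 0.7 to 0.8, Khdrbs1, an RNA-binding protein (0.79), and the proton pump subunit Atp6v0e2 (0.72). The largest falls were Pde7a, a cAMP phosphodiesterase (-0.80), H2-M3 (-0.77), the clotting factor F7 (-0.77), Zbtb46 (-0.72) and the organic anion exporter Abcc3 (-0.69, and -0.39 without BXH2 replicate 1, limma adjusted p = 0.396), followed by Mpeg1 (-0.69). F7 had 346.7 and 235.8 in BXH2 and 348.8 to 676.3 on the other RI arrays, so the arrays did not overlap, and without BXH2 replicate 2 it was -0.50 (limma adjusted p = 0.287). Khdrbs1 and Pde7a were lost without BXH2 replicate 2 (adjusted p = 0.0786 and 0.131), and Atp6v0e2 without either (adjusted p = 0.111 and 0.0866). Nnt, a mitochondrial transhydrogenase in which B6 carries a known deletion (0.11, adjusted p = 0.775), and Tlr4, the endotoxin receptor mutated in C3H/HeJ (0.01, adjusted p = 0.997), did not pass. Of the 39 gene lists, 38 had tested members and 19 of these had a called gene. The 19 with none had medians from -0.35 to 0.94.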

How the data were processed

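Lung RNA of 12 kinds of mice was measured on Affymetrix Mouse 430A arrays, 2 each. The authors deposited a linear intensity (signal) for each probe set on each array. The software and scaling that made it were not given in the sources used here. On every array the mean signal trimmed by 2 percent at each end was 500.11 to 500.13 and the medians 239 to 269.6, so no further normalization was applied. Of 22690 probe sets, 20380 had one gene symbol in the platform annotation, 691 several, 1555 none, and 64 were controls. Each gene was read by its probe set of highest mean, and tested if that mean of log2 values over all 24 arrays lay in the top 60 percent of probe sets (a signal of 168.8), which left 8280 genes.

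One model with 12 strains as groups was fitted to log2(signal + 16) with limma 3.58.1 in R 4.3.3 (lmFit, eBayes with a trend, 12 residual degrees of freedom), and p-values were Benjamini-Hochberg adjusted. The number of arrays limits the precision. The fit was tested on simulated data. Outside means beyond both progenitor means by more than 0.5, and a progenitor level means within 0.5 of one progenitor where these differ by at least 1. Gene order and promoters come from RefSeq tables of GRCm38.p6.

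The members, lists and rules were chosen with earlier results of these data known. Named genes were Irf8 and its 3 neighbours of smallest p, the 12 (outside), 8 (progenitor level) or 5 (other classes) largest called differences in each direction, up to 10 in each direction of those outside by both tests, up to 4 of smallest p per list, and H2-D1, H2-K1, Glo1, Nnt and Tlr4. Genes under the filter, and others outside this rule, were named after their values were seen. Alternatives were other scalings, offsets, filters, probe set rules, margins and sets of arrays, no trend, a replicate block, a muscle covariate, and leaving out each array or strain.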

Additional observations from a re-analysis of the deposited data

How the results depend on the processing

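Of the 97 called genes, 8 stayed called in every alternative run (Baiap2l1, C1qa, Ggcx, H2-K1, H2-D1, Naaa, Wdr82 and Rab6b) and 89 were lost in at least 1, in most cases by leaving out a BXH2 array. Leaving out single arrays or strains gave 9 to 72 higher and 28 to 55 lower genes, with 9 and 28 without BXH2 replicate 1 and 14 and 29 without BXH2 replicate 2. The muscle covariate left 14 higher and 20 lower, and testing every probe set gave 74 lower. Genes above both progenitors by both tests ran from 6 to 14 over the left-out arrays (14 without BXH2 replicate 2) and those below from 2 to 15. The latter were 8 with median centring, 7 with the muscle covariate, 2 with only the 6 arrays of BXH2, B6 and C3, 5 and 2 without B6 replicate 1 and 2, and 8 and 5 without C3 replicate 1 and 2. Called genes outside by position were 7 with a margin of 1 and 20 without BXH2 replicate 1, within 20 to 33 over the left-out arrays. Those at a shared progenitor level were 35 with a progenitor difference of at least 0.5, and 7 to 24 over the left-out arrays, with 9 and 7 without BXH2 replicate 1 and 2. One gene reversed, Pdxdc1, at 1.92 with an offset of 64, where another of its probe sets was read. With the replicate number as a block 53 genes were higher and 47 lower. The correlation of deviations over 66 pairs of strains ran from -0.299 to 0.344 (median -0.004) and was above 0.1 in 33.3% of pairs. These values cannot tell whether arrays of some strains were handled together. For the other changes the cause was not tested. Signals near the lower end limit the dim genes, whose differences shrink with the offset.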

Other observations

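Genes under the signal filter, chosen here after their values were seen, gave 22 called genes in the fit without a filter, 13 higher and 9 lower. That fit called 100 of all 12393 genes, 51 higher and 49 lower. Gabrb1, a subunit of the GABA-A receptor, had signals of 585.3 and 628 in BXH2 and 68.6 to 197 on the other RI arrays (limma difference 2.04, adjusted p = 0.00245). B6 had 161.8 and 115.2 and C3 had 131.2 and 169.5, so both BXH2 arrays were far above all of these. It was lost with the muscle covariate (adjusted p = 0.0510). Glycam1, a mucin-like ligand of L-selectin on high endothelial venules, had 213 and 169.9 against 4.3 to 137.9 (2.97, adjusted p = 8.71e-04), and 52 and 28 in C3. Dnase1l3, a nuclease secreted by macrophages and dendritic cells, had 26.4 and 14 against 59.6 to 267.7 (-2.01, adjusted p = 0.00245), while its other probe set gave -0.04. It was lost without BXH2 replicate 2 (-1.76, adjusted p = 0.0681) and with the muscle covariate (-1.62, adjusted p = 0.0510). Cd86, a costimulatory ligand of antigen-presenting cells, had 100.4 on both BXH2 arrays against 140.5 to 211.9 (-0.69, adjusted p = 0.0240), and it was lost in 4 of 40 alternatives, among them the fits without either BXH2 array.

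Of 8 tested adipose genes none passed (median 0.92), and of 8 squamous epithelium genes none passed (median 0.94), beside -0.01 over all genes.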
